A study of Mus musculus with 24 samples.

Results

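Ubiquitin C-terminal hydrolases (UCH) form a small family of cysteine proteases, and 4 of its genes, Uchl1, Uchl3, Uchl5 and Bap1, were followed among the 14912 genes of the expression table. Uchl4, a near copy of Uchl3 with levels close to 0, is given beside Uchl3. They were taken by symbol, with every sample of both groups. The study had drawn Uchl1 from a co-expression module, a set of genes whose levels vary together, that correlated with group, immune and stroma scores. It then singled out Uchl1 for telling the groups apart, so the levels of Uchl1 are given as a description with no test. The study describes more samples per group than are followed here. The other 3 were included for their protein family alone, and their differences were tested.

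The samples were left ventricles of wild-type mice (male C57BL/6J animals by the study's methods), profiled by bulk RNA sequencing. The hypertensive-LVH group (n = 12) had received angiotensin II (ANG II), a vasoconstrictor peptide that raises blood pressure and enlarges the left ventricle, at 1500 ng/kg/min for 7 days from a mini-pump under the skin. The control group (n = 12) had received saline in the same way for 7 days. The animals' age and the sequencing depth are not given in the sources used here.

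UCH enzymes remove ubiquitin, a small protein that marks other proteins for degradation or alters their function, from short or unfolded tails and from the ubiquitin precursors. UCHL1, also called PGP9.5, is very abundant in neurons and serves as a stain for nerve fibres. UCHL3 also acts on NEDD8, a ubiquitin-like protein. UCHL5 works at the proteasome and in the INO80 chromatin remodeller, and BAP1 is a nuclear tumour suppressor that removes ubiquitin from histone H2A.

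All 4 genes lie on the plus strand and are protein-coding in the GENCODE vM21 annotation (GRCm38). Uchl1 (ENSMUSG00000029223.12) spans chr5:66676091-66687234 and its principal transcript has 9 exons and 1177 bases. Uchl3 (ENSMUSG00000022111.9) spans chr14:101653967-101696125, with 9 exons and 903 bases. Uchl5 (ENSMUSG00000018189.12) spans chr1:143777272-143807466, with 11 exons and 1696 bases. Bap1 (ENSMUSG00000021901.10) spans chr14:31251450-31259944, with 17 exons and 3460 bases. The antisense gene Uchl1os covers 408 bases at the start of Uchl1 and was not analysed here. The library protocol does not state whether strand was kept, so reads from these bases may come from either gene.

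The promoters of Uchl1, the family member that differed most between the groups, and of Uchl5, whose difference was small, are shown for comparison, each from 250 to 31 bases before the start (RefSeq, GRCm38.p6, plus strand), with CG dinucleotides in capitals. The Uchl1 stretch is chr5:66675871-66676090 and the Uchl5 stretch is chr1:143777028-143777247.
Uchl1: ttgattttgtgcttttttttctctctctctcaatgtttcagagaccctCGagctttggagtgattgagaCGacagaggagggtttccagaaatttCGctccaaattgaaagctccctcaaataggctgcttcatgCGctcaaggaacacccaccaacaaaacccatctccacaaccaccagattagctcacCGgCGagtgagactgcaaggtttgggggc
Uchl5: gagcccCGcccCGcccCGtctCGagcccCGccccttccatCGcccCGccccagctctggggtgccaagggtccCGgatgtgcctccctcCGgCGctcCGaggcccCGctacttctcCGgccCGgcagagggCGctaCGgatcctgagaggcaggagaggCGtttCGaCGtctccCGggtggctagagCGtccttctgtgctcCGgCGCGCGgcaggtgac
The Uchl1 stretch held 6 CG dinucleotides and the Uchl5 stretch 25. Over the full window of 250 bases before to 50 after the start, Uchl1 had 9 CG dinucleotides and a GC content of 50.7%, near the medians of 7 and 52.7% over 32851 mouse promoters. The windows of Uchl3, Uchl5 and Bap1 held 27, 36 and 50 CG dinucleotides, more than 84.5%, 93.8% and 99.1% of promoters. The windows were searched on both strands for 4 motifs. The GC box letters GGGCGG, present in 35.7% of all promoters, were found in the windows of Uchl3, Uchl5 and Bap1. The TATA box letters TATAAA (13.6% of all promoters), the CCAAT box letters CCAAT (37.4%) and the AP-1 letters TGACTCA (5.20%) were in none of the 4 windows, and the Uchl1 window held none of the motifs.

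The values are FPKM, a fragment count scaled to transcript length and to the mapped reads of the sample, that had been adjusted in 4 sets of samples, numbered 1 to 3, 4 to 6, 7 to 9 and 10 to 12 in each group. Of all values, 2741 (0.766%) were below 0, but none of a UCH gene. The sets, which the sources do not explain, were recognised from tied values. The 278 genes with only whole hundredths as values, which can tie between any samples, were left out. Ties of the other genes were found only between samples of the same set and group (215 to 541 genes per pair). The cardiomyocyte genes Myh6 and Tnnt2 averaged 7906 and 5876 FPKM in the control group, levels of heart muscle, although the extraction text of the labels names CRC cells. Samples 4 to 6 stood apart. On the first principal component, which held 40.0% of the variance, the means of the hypertensive-LVH and control samples in this set were 28.3 and -41.1, against 6.94 to 14.1 and -11.5 to -2.90 in the other sets. Atrial genes varied between single samples, with Myl7 from -75.4 to 1443 FPKM in the control group.

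Uchl1 was higher in the hypertensive-LVH group. Its lowest, median and highest adjusted FPKM were 14.1, 18.5 and 32.0 in that group and 4.48, 8.63 and 11.9 in the control group. All 12 hypertensive-LVH samples lay above the highest control sample. The mean was 19.7 ± 4.90 FPKM (SD, n = 12) against 8.45 ± 2.50 (SD, n = 12), a ratio of 2.33, and the log2 fold change on log2(FPKM + 1) was 1.15. Of 14026 genes tested, 93 (0.663%) had a larger log2 fold change, and the groups did not overlap in 106 genes (0.756%), 38 of them (0.271%) higher in the hypertensive-LVH group. As Uchl1 was selected on this difference, nothing further is read from it. In whole tissue, more cells of a type and more RNA per cell cannot be told apart.

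**Figure D1:**
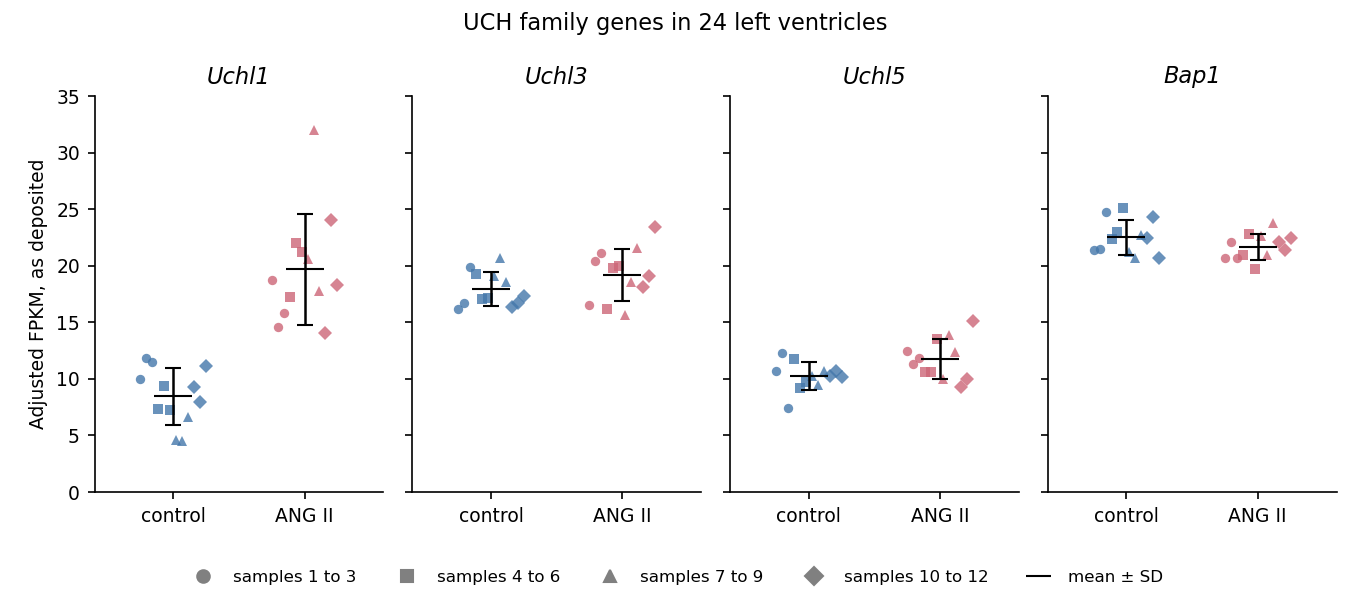
Adjusted FPKM (y axis, as deposited) of Uchl1, Uchl3, Uchl5 and Bap1 in the 12 control and 12 ANG II (hypertensive-LVH) samples. Points are samples, shapes mark the 4 sets, and bars are the mean ± SD. The groups separate for Uchl1 (highest control sample 11.9, lowest ANG II sample 14.1) and overlap for the other 3 genes.

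The size of the Uchl1 difference varied between sets. In samples 1 to 3, 4 to 6, 7 to 9 and 10 to 12 the mean of the hypertensive-LVH samples exceeded that of the controls by 5.26, 12.2, 18.2 and 9.35 adjusted FPKM (n = 3 and 3 in each set), or by 0.52, 1.24, 1.94 and 0.90 on the scale of log2(adjusted FPKM + 1). The set means spanned 16.4 to 23.4 with ANG II and 5.24 to 11.1 with saline, and the set of samples 7 to 9 held both the highest hypertensive-LVH mean and the lowest control mean. The order of the sets was reversed between the groups. As the values had been adjusted by set, these extremes are not independent observations. The differences in FPKM before the adjustment could be recovered for the 4 genes, since those values are whole multiples of 0.01. The levels themselves were not recovered. The solution assumed that the adjustment shifted and rescaled each set around a group difference common to all sets. Before the adjustment the Uchl1 differences were 3.24, 12.4, 18.2 and 9.90 FPKM. In each set all 9 pairs of a hypertensive-LVH and a control sample had the higher value in the former.

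**Figure D2:**
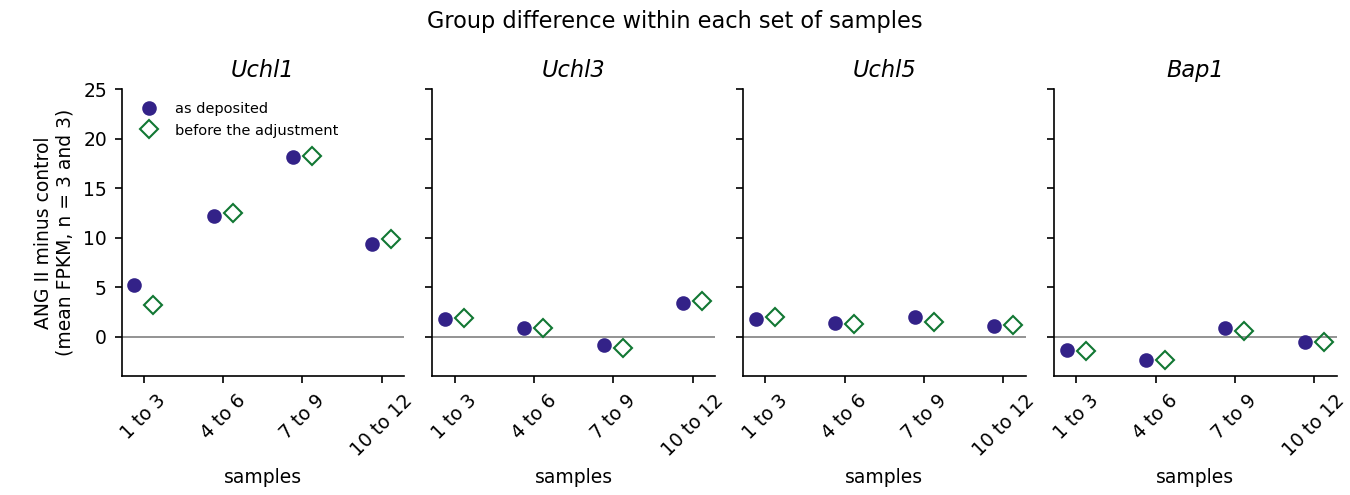
Difference of mean FPKM, ANG II minus control (y axis), in each set of 3 and 3 samples (x axis) for the 4 UCH genes, as deposited (filled) and before the adjustment (open). Uchl1 lies above 0 in every set, from 5.26 to 18.2 as deposited, Uchl5 lies between 1.10 and 1.96, and Uchl3 and Bap1 take both signs.

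Uchl3, whose enzyme acts on both ubiquitin and NEDD8, did not pass the test. Its lowest, median and highest values were 15.6, 19.4 and 23.4 FPKM in the hypertensive-LVH group and 16.2, 17.2 and 20.7 in the control group, and the ranges overlapped in most samples. The means were 19.2 ± 2.33 and 17.9 ± 1.52 FPKM (SD, n = 12 each). The log2 fold change was 0.09 (SE 0.06, 95% interval -0.03 to 0.21, limma adjusted p = 0.241). Within sets, the recovered differences were 1.88, 0.88, -1.18 and 3.60 FPKM, of both signs. Uchl4, a gene with 1 exon, matches Uchl3 in 672 of 690 coding bases (97.4%), so reads may be split between them. It averaged 0.06 FPKM in the hypertensive-LVH group and 0.0308 in the control group, with 8 of 12 and 9 of 12 samples listed at 0, and fell under the minimum for testing.

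Uchl5, the proteasome-bound member, had values of 9.28, 11.6 and 15.1 FPKM (lowest, median and highest) in the hypertensive-LVH group and 7.45, 10.2 and 12.3 in the control group. In 5 of 12 hypertensive-LVH samples it lay above the highest control. Its means were 11.8 ± 1.79 and 10.2 ± 1.24 FPKM (SD, n = 12 each). The log2 fold change of 0.18 (SE 0.07, 95% interval 0.03 to 0.33) missed the threshold after adjustment over all genes (limma p = 0.0215, adjusted p = 0.0601). The recovered differences within sets were 2.00, 1.26, 1.45 and 1.18 FPKM, all above 0, although in samples 10 to 12 only 3 of 9 pairs were higher in the hypertensive-LVH sample.

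Bap1, the histone H2A deubiquitinase, varied least. Its lowest, median and highest values were 19.7, 21.7 and 23.8 FPKM with ANG II and 20.6, 22.4 and 25.1 with saline. No hypertensive-LVH sample exceeded the highest control. With means of 21.7 ± 1.14 and 22.5 ± 1.54 FPKM (SD, n = 12 each), the log2 fold change was -0.05 (SE 0.04, 95% interval -0.13 to 0.03, limma adjusted p = 0.311). The coefficient of variation of Bap1 was 5.26% and 6.83% in the hypertensive-LVH and control groups, against 24.9% and 29.6% for Uchl1, 12.1% and 8.47% for Uchl3, and 15.3% and 12.2% for Uchl5.

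As FPKM is scaled to length, the 4 deposited levels were set in order. The adjustment had rescaled each gene by its own factors, so the order holds for the adjusted values only. In the control group Bap1 was highest, Uchl3 followed (4.59 ± 2.26 FPKM lower within a sample, SD, in 11 of 12 samples), then Uchl5 (7.70 ± 2.31 below Uchl3, 12 of 12) and last Uchl1. Uchl5 and Uchl1 differed by 1.77 ± 2.82 FPKM, within their spread, with Uchl5 higher in 9 of 12 samples. In the hypertensive-LVH group Uchl1 stood second, 2.00 ± 5.26 below Bap1 (in 9 of 12 samples) and 0.498 ± 5.70 above Uchl3 (in 7 of 12). Neither step exceeded its spread. Uchl5 was then last, 7.44 ± 2.00 FPKM below Uchl3 in 12 of 12 samples. With group means removed, Uchl1 had a Spearman's rho over the 24 samples of -0.304 with Uchl3, 0.109 with Uchl5 and 0.005 with Bap1.

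The other deubiquitinases had smaller log2 fold changes than Uchl1, which is only a description, as Uchl1 was selected for its difference and they were not. Of 70 tested genes from the USP, OTU, Josephin and JAMM families, 14 were higher and 4 lower in the hypertensive-LVH group (25.7%, against 33.5% of all tested genes), and their log2 fold changes ran from -0.27 to 0.54 with a median of 0.09 (all genes 0.05). Among all genes, 20.9% were called higher and 12.6% lower (limma, adjusted p under 0.05). The split of the listed calls depended on scaling: quantile normalisation gave 4 higher and 7 lower among these 70 genes, with a median of 0.01. With the set of samples as a term in the fit, 9 were higher and 1 was lower.

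Otulin, which cuts linear ubiquitin chains and restrains inflammatory signalling, was higher in all 12 hypertensive-LVH samples than in any control, as were 0.271% of all tested genes. It had a lowest, median and highest level of 22.5, 25.6 and 29.3 FPKM in the hypertensive-LVH group and 13.1, 17.8 and 20.8 in the control group. Its log2 fold change was 0.54 (adjusted p = 4.27e-06), and it was the only one of the 70 past an absolute log2 fold change of 0.5, as were 5.92% of all genes (4.52% higher and 1.4% lower). Usp16, another H2A deubiquitinase, rose by 0.30 (adjusted p = 0.00249) on the log2 scale, Usp18, the interferon-induced protease for ISG15, by 0.36 (adjusted p = 0.0271), and Vcpip1, which acts with VCP in Golgi reassembly, by 0.27 (adjusted p = 0.00878). The log2 fold changes of the genes called lower were -0.16 for Usp10 (adjusted p = 0.0305), -0.09 for Usp5 (adjusted p = 0.0488), -0.27 for Josd2 (adjusted p = 0.0381) and -0.17 for Mpnd (adjusted p = 0.0186). With the set as a term, Usp10, Usp5 and Josd2 were no longer called (adjusted p = 0.0514, 0.0799 and 0.0587).

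**Figure D3:**
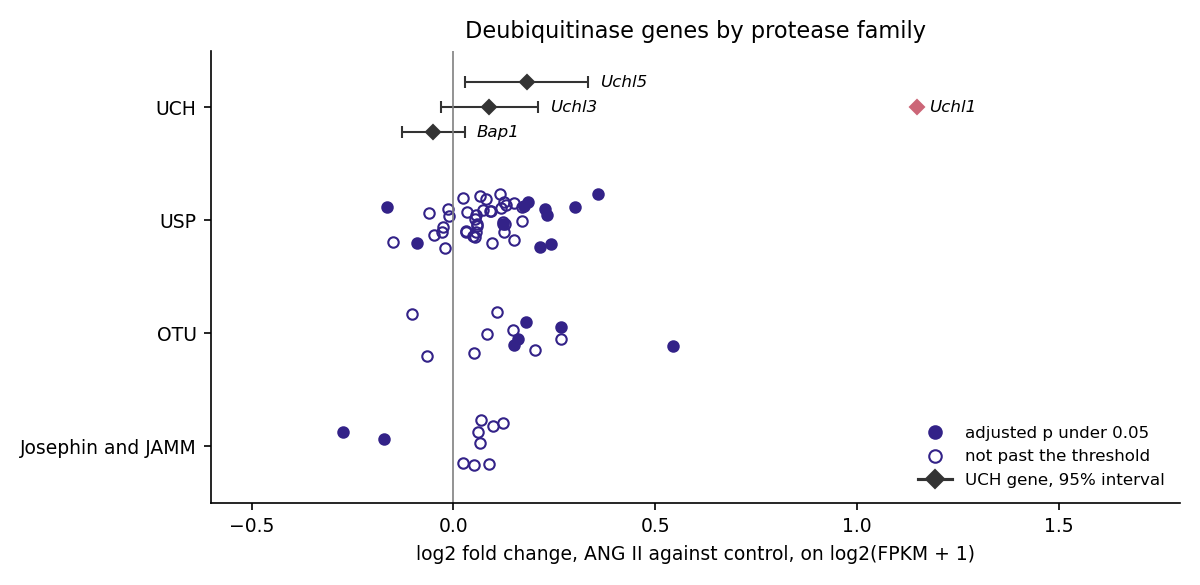
Log2 fold change, ANG II against control on log2(FPKM + 1) (x axis), of the tested deubiquitinase genes by protease family (y axis). Circles are single genes, filled where the adjusted p is under 0.05, and diamonds are UCH genes with the 95% interval for the 3 tested ones. Uchl1 lies at 1.15, and the other families lie between -0.27 and 0.54.

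The substrates and partners of the UCH enzymes showed small changes. Of 4 ubiquitin genes, 1 was called higher (25%, against 20.9% of all tested genes). It was Ubb, a stress-responsive polyubiquitin gene (log2 fold change 0.18, adjusted p = 0.0220). Of 20 genes of the NEDD8 pathway, 3 were higher and 3 lower (30%, against 33.5% of all tested genes). Under both quantile normalisation and median-ratio scaling 0 were higher and 4 lower, and 0 were higher and 3 lower with the set as a term or without samples 4 to 6. Dcun1d2, a co-factor that helps attach NEDD8 to cullins, had 15.9, 23.8 and 26.3 FPKM (lowest, median and highest) in the hypertensive-LVH group and 27.9, 32.3 and 37.5 in the control group. All 12 hypertensive-LVH samples were below the lowest control, with a log2 fold change of -0.45 (adjusted p = 2.97e-05). Among all tested genes, the groups did not overlap in 0.756%, either direction counted. The cullin partner Rnf7 was at -0.16 (adjusted p = 0.00619), and the cullin genes Cul4b and Cul1 at 0.25 and 0.12 (adjusted p = 0.0499 and 0.0445, and 0.0754 and 0.0709 with the set as a term).

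Of 17 genes for proteasome and INO80 partners of UCHL5, 3 were higher and 1 lower (23.5%, against 33.5% of all tested genes). The split was 1 higher and 3 lower under quantile normalisation, and 1 and 0 with the set as a term. Among them were the INO80 subunits Ino80c (log2 fold change 0.23, adjusted p = 0.00319), Yy1 (0.14, adjusted p = 0.0393) and Ruvbl2 (-0.17, adjusted p = 0.0351), the latter pair at an adjusted p of 0.0648 and 0.0572 with the set as a term. None of the 10 tested partners of BAP1 was called by limma (against 33.5% of all tested genes) or by the Wilcoxon rank-sum test. Before adjustment 1 of them was under 0.05 in limma, and their median log2 fold change was 0.05. Of 8 genes of the PRC1 complex, which adds the H2A ubiquitin that BAP1 removes, 3 were higher (37.5%, against 20.9% of all tested genes). The catalytic subunit Rnf2 had a log2 fold change of 0.29 (adjusted p = 0.00298) and the PCGF subunit Pcgf5 of 0.19 (adjusted p = 9.69e-05, with 11 of 12 samples above the highest control).

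Uchl1 is a nerve marker, so neuronal genes were examined beside it. Of 9 tested genes of the neuron and nerve fibre list, 2 were called, both higher (22.2%, against 20.9% of all tested genes called higher). They were Tubb3, a neuronal tubulin (log2 fold change 0.79, limma adjusted p = 0.00436), and Gap43, a growth cone protein (0.24, adjusted p = 0.00186). Tubb3 averaged 2.59 and 1.08 FPKM in the hypertensive-LVH and control groups, with 1 of 12 control values at or below 0. Gap43 was near the floor, at 0.376 and 0.161 FPKM. Th, Chga, Syt1, Slc18a3 and Chat were not analysed here. Stmn2 averaged 5.39 ± 1.83 FPKM in the hypertensive-LVH and 4.11 ± 1.05 in the control group (SD, n = 12 each, adjusted p = 0.109), and Dbh, the noradrenaline-synthesising enzyme, 1.22 ± 0.381 and 1.70 ± 0.582 (adjusted p = 0.0584). The summed level of the list was 7.05 to 19.4 FPKM in the hypertensive-LVH group and 5.53 to 11.6 in the control group. None of 9 Schwann cell genes was called by limma or the Wilcoxon rank-sum test, and 0 were under 0.05 before adjustment (sums 7.37 to 17.5 and 6.01 to 15.9 FPKM). By limma, 1 of the 9 was called lower without samples 4 to 6, and 1 under quantile normalisation.

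Markers of other cell types also differed between the groups, where 20.9% of all tested genes were called higher and 12.6% lower. All 9 macrophage genes were higher (Cd68 by 0.92 on the log2 scale, adjusted p = 0.00290, list sums 341 to 1067 against 266 to 613 FPKM), as were 9 of 11 activated fibroblast genes (Fn1 by 2.08, with 3 of 12 control values at or below 0) and 7 of 8 dividing cell genes (Birc5 by 1.50, with 2 such values). Of 9 ventricular cardiomyocyte genes, 5 were lower (Tnni3 at -0.63, adjusted p = 8.06e-06, list sums 34810 to 50922 against 45925 to 59245 FPKM). Without samples 4 to 6, 2 of 11 activated fibroblast genes (median log2 fold change 0.29 against 1.41), 7 of 8 dividing cell genes and 3 of 9 ventricular cardiomyocyte genes were called, and none of the 9 macrophage genes by limma (4 under 0.05 before adjustment), whose median log2 fold change was then 0.39 against 0.65. Quantile normalisation turned the cardiomyocyte list's median from -0.30 to 0.02. The remaining lists had 5 higher and 1 lower of 10 fibroblast genes (Col1a1 by 2.77, with 3 of 12 control values at or below 0), 2 of 6 T cell genes higher (Lck by 0.28), 1 higher and 1 lower of 8 endothelial genes (Pecam1 by 0.37), 2 and 2 of 8 smooth muscle and pericyte genes (Tagln by 1.32, with 1 such value), 5 of 5 red blood cell genes higher (Hba-a2 by 3.39, with 3 such values), 3 of 4 hypertrophy genes higher (Nppa by 6.96, with 7 of its 12 control values at or below 0), and none of 8 mesothelial or 4 atrial genes called by limma or the Wilcoxon rank-sum test, with 0 under 0.05 before adjustment. Without samples 4 to 6, the number called higher was 2 for fibroblast (median 0.17 against 0.77), 0 for T cell, 0 for smooth muscle and pericyte (0 of either also before adjustment) and 1 for neuron and nerve fibre genes by limma. In that setting 1 of 8 mesothelial genes was called higher, although the median of the list was -0.14.

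Within the groups, Uchl1 was followed across samples beside these lists. The study drew Uchl1 from a module chosen for its correlation with immune and stroma scores in its samples. Relations of Uchl1 with the lists are therefore not independent of its selection, and their p-values take no account of it. After group means were removed, Spearman's rho over the 24 samples was past the threshold for 7 of 14 lists (permutation test within groups, Benjamini-Hochberg adjusted). It was -0.612 for ventricular cardiomyocyte genes (adjusted permutation p = 0.0084, Pearson's r -0.613 with 0.00434), 0.637 for dividing cell genes (adjusted permutation p = 0.0084, r 0.667 with 0.00434), 0.616 for macrophage genes (adjusted permutation p = 0.00975, r 0.585 with 0.0109) and 0.530 for neuron and nerve fibre genes (adjusted permutation p = 0.0211, r 0.392 with 0.144). Hypertrophy, activated fibroblast and mesothelial genes were at 0.578, 0.576 and 0.480. By Pearson's r, 3 of the 14 passed: the cardiomyocyte, dividing cell and macrophage lists. Leaving out the 2 samples farthest from the median score gave r of -0.549, 0.721 and 0.507 for these 3 lists, and 0.428 for the neuronal one, and the macrophage r then missed the threshold (adjusted permutation p = 0.0857).

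The relations changed when the means of each set within a group were removed as well. Spearman's rho was then -0.756 for ventricular cardiomyocyte, 0.764 for activated fibroblast and 0.708 for fibroblast genes (adjusted permutation p = 0.00742, 0.00714 and 0.00789), and 5 of 14 lists passed, 4 of them among the 7 above. For macrophage, dividing cell and neuronal genes it was 0.251, 0.266 and 0.434, which did not pass (adjusted permutation p = 0.405, 0.403 and 0.154). The part of any of these marker lists in the group difference of Uchl1 was not tested.

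**Figure D4:**
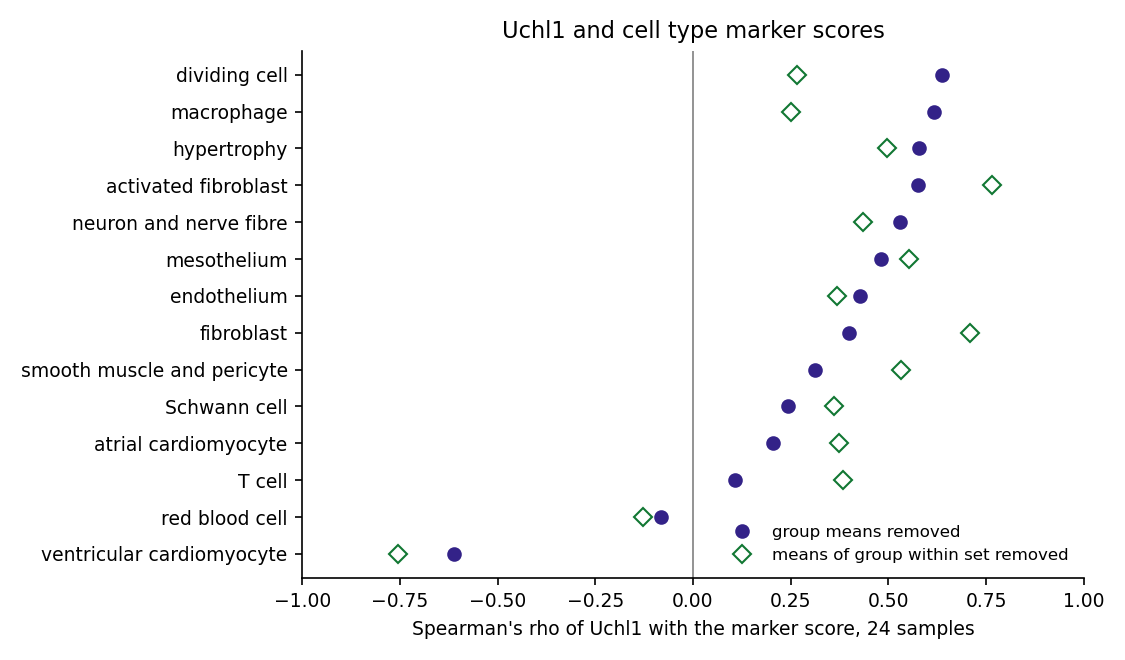
Spearman's rho of Uchl1 with the score of each of 14 marker lists (x axis, 24 samples) after removal of group means (filled) and of the means of each group within each set (open). Ventricular cardiomyocyte genes lie at -0.612 and -0.756, and macrophage and dividing cell genes fall from 0.616 and 0.637 to 0.251 and 0.266.

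The genes whose levels followed Uchl1 most closely within the groups were taken from 11457 genes with a mean of at least 1 FPKM, among which rho had a median of 0.106 and a 99th percentile of 0.68. The first 8 were Sprr1a (0.879), a cornified envelope gene also induced in stressed heart muscle and injured nerve, Ms4a7 (0.844), a macrophage membrane gene, Star (0.844), the mitochondrial cholesterol transporter of steroid synthesis, Tmem173 (0.830), which encodes the DNA-sensing adaptor STING, the serine protease inhibitors Serpinb1a (0.828) and Serpinb1c (0.823), the collagen cross-linking enzyme gene Lox (0.811) and the matrix gene Tnc (0.796). These values describe 24 samples that share the 4 sets. With set means also removed they ranged from 0.366 for Tnc to 0.701 for Serpinb1c, and the first 8 genes of that order shared 0 genes with the first 8 above.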

How the data were processed

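Left ventricles of 12 ANG II and 12 saline-infused mice were compared, grouped by GEO's labels. The submitters' processing notes name HISAT, Bowtie2 and RSEM. The genome build is not given in the sources used here. The authors deposited FPKM per gene. As the deposited values include negative numbers and had been adjusted in 4 sets of 3 samples per group, a step the methods do not name, they were treated as a score on the FPKM scale rather than as plain FPKM. The table holds no counts, so depth and counting error are unknown.

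Negative values were set to 0, and a gene was tested if its mean over all samples reached 0.1. Values were tested as log2(value + 1) with limma 3.58.1 (R 4.3.3, intensity trend, Benjamini-Hochberg adjustment over 14026 genes), which was tested on simulated data. A fold change on this scale understates the change of low genes. A gene was called at an adjusted p under 0.05. The differences in FPKM before the adjustment were solved from the 0.01 step (tolerance 0.0005 of a step), an analysis chosen after seeing the data. A marker score was the mean of a list's log2 values, and its relation with Uchl1 was tested with 100000 permutations within groups. Python 3.11.15 was used.

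The members and lists were chosen with earlier results of these data known. The genes named were the 4 members, the 2 called genes with the largest rise and the 2 with the largest fall of each ubiquitin list, the called gene with the largest change of each marker list (for the neuronal list, Tubb3) and the 8 genes most like Uchl1. Gap43, Stmn2, Dbh and the genes of the sample checks were named after their values were seen. Alternatives were another pseudocount, filter, scaling, test, the replicate number as a block, the set as a term, and each set left out. The p-values measure the spread between the adjusted values of these samples. The adjustment had rescaled the spread within sets (for Uchl1 by recovered factors of 0.799 to 1.33), and the p-values take no account of that step.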

Additional observations from a re-analysis of the deposited data

How the results depend on the processing

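Under all 13 alternatives Uchl3, Uchl5 and Bap1 kept their direction and missed the threshold. The alternatives of filter, intensity trend and test, the block and the set term could not move a log2 fold change, so they do not probe its direction. The log2 fold change of Uchl1, given with no test, ran from 0.89 (without samples 7 to 9) to 1.36 (without samples 1 to 3), that of Uchl3 from 0.03 to 0.14 (adjusted p 0.0944 to 0.733), that of Uchl5 from 0.11 to 0.21 (adjusted p 0.0549 to 0.245) and that of Bap1 from -0.10 to -0.02 (adjusted p 0.111 to 0.794).

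Calls in the listed ubiquitin system genes were less stable. Against 32 calls, there were 21 with median-ratio scaling, 18 with the set as a term, 15 without samples 1 to 3, 9 without samples 4 to 6 and 10 without samples 10 to 12. The share of these calls that were higher was 75%, but 37.5% with quantile normalisation and 52.4% with median-ratio scaling. Of the 18 listed genes named, Dcun1d2, Otulin, Pcgf5, Rnf2, Rnf7 and Usp16 were called under every alternative, while the other 12 lost the call under 1 (Ino80c) to 10 (Cul4b) of them. The deubiquitinases outside the UCH family had 2 to 14 genes called higher and 0 to 7 lower over the alternatives.

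Over all genes, 4697 calls became 2810 without samples 4 to 6, where 41.9% were higher against 62.3%. Quantile normalisation gave 39.6% and median-ratio scaling 51.9% higher. Genes also past a log2 fold change of 0.5 numbered 831, 1489 with a pseudocount of 0.1 and 553 without samples 4 to 6. The cause was not tested.

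The 12 correlations of same-numbered samples' deviations from the group means ran from -0.557 to -0.0011, and 0 samples correlated best with their own number. Same-numbered samples always share a set, and the values had been adjusted by set, so this check cannot decide whether the replicate numbers pair the samples. With the replicate number as a block, 2824 genes and 9 of the listed genes were called. In this balanced design neither the block nor the set term can move a log2 fold change, so that of Uchl1 is 1.15 by construction. Without counts, depth limits cannot be given.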
